A study of Homo sapiens with 9 samples.

Results

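Tubulins are the globular proteins that polymerize into microtubules. The alpha and beta forms join as a heterodimer that is added to the microtubule ends, and gamma-tubulin sits in a ring complex from which new microtubules grow. The human genome holds several genes for alpha- and for beta-tubulin, called isotypes, whose use differs between tissues. TUBB1 is the beta isotype of megakaryocytes and platelets, where it forms the band of microtubules under the platelet membrane. The genes described here were 10 members of the family, chosen by name with earlier results of these data known. Counts of the 10 beside all genes therefore describe these members and not the family. The 10 were the beta-tubulin genes TUBB1, TUBB2A, TUBB2B, TUBB3, TUBB4B and TUBB6, the alpha-tubulin genes TUBA1A, TUBA1C and TUBA4A, and the gamma-tubulin gene TUBG1. They were 10 of the 12078 genes that the probe annotation names with a probe set of their own, and 14 of the 27306 probe sets in the table of values were annotated to exactly 1 of them.

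The mRNA was measured on 9 Affymetrix expression arrays of K562 and HEL, established human leukemia cell lines that can take on erythroid or megakaryocytic features under inducers. The K562 arrays were 2 of untreated cells, 2 of cells given hemin (the oxidized form of heme, an inducer of erythroid features), at 25 µM in the first and 50 µM in the second, 1 with 100 nM decitabine (DAC, an inhibitor of DNA methyltransferases) and 1 with 5 nM PMA (a phorbol ester that activates protein kinase C). The HEL arrays were 1 each of untreated cells, cells with 20 nM DAC and cells with 5 nM PMA. DAC came as 3 pulses, each lasting 24 h, and the cells were collected at 144 h counted from the first pulse. PMA was left on for 48 h, whereas the time in hemin and the harvest time of untreated cells are not given in the sources used here. The doses are those of the sample titles. The protocol shared by all samples names hemin at 50 µM only and DAC at 50 and 100 nM. Both lines are kept in the same serum-containing medium. Nothing in the labels says whether arrays of the same line came from separate cultures. The p-values therefore rest on the spread of the arrays at hand, which between the untreated arrays may be technical only. In the fits the 2 hemin arrays formed 1 group, so that spread also holds any difference between 25 and 50 µM. This applies to the tests of PMA, DAC and the cell lines too.

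The values were log2 expression values made with GCRMA, and the median over all probe sets lay between 6.67 and 6.78 in the 9 arrays. A gene counted as measured where a probe set reached a log2 value of 5 in at least 1 array of the fit, and the brightest such probe set stood for the gene. All 10 genes were measured in K562 and 9 in HEL, where TUBB2B stayed below 5. Of the 14 probe sets, 7 carry the suffix that the manufacturer gives to probe sets with probes that also match other sequences, among them every probe set of TUBB2B, TUBB3, TUBB4B and TUBA1C, so their values can include signal from a related tubulin. The 2 untreated K562 arrays were not alike for every gene. Over 9890 genes, the second untreated array was over 1.5-fold higher than the first for 13.3% and over 1.5-fold lower for 11.2%, and the mean log2 value of 8 measured erythroid markers was 9.98 in the first and 8.88 in the second.

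Promoter sequences are shown for the 2 genes that passed the test with PMA in K562 and for TUBB6, the member whose values ran closest to those of TUBB2A, because the series includes a DNA methyltransferase inhibitor and CpG pairs are the sites of DNA methylation. Each is 300 bases, from 250 before to 50 after a transcription start in RefSeq (GRCh38.p14), written 5′ to 3′ on the gene's strand, with CpG pairs in capitals. TUBB1 lies on the plus strand at chr20:59019179-59019478, TUBB2A on the minus strand at chr6:3157495-3157794, and TUBB6 on the plus strand at chr18:12307991-12308290, the window with more CpG pairs of the 2 given for that gene. The TUBB1 window is inside the span that RefSeq gives that gene, which starts at 59016438.

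TUBB1: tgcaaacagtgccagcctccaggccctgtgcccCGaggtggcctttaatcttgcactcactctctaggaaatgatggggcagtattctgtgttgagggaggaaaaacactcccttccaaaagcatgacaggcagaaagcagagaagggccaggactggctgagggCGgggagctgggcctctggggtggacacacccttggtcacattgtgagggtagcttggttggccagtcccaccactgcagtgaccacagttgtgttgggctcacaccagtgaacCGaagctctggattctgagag

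TUBB2A: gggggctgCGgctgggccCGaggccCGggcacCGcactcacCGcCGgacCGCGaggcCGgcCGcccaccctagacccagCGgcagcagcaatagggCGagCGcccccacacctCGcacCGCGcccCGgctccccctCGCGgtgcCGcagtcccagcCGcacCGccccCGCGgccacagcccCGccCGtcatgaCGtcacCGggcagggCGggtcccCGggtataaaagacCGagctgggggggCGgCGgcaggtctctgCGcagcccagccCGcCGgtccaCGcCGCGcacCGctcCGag

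TUBB6: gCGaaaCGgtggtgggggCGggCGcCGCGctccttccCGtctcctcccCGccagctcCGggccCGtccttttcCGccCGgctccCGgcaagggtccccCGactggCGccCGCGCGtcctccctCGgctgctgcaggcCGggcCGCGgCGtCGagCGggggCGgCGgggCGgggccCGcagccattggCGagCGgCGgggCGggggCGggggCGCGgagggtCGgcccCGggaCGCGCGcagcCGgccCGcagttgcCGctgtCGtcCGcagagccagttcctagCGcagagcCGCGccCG

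The TUBB1 window held 3 CpG pairs, and 18.2% of 35116 promoter windows of the same length held fewer. The TUBB2A window held 41, with 93.3% of windows below it, and the TUBB6 window held 50, with 98.7% below it. The other TUBB6 window, not shown, held 20, with 58.8% below it. The median over all windows was 14. In the TUBB2A window the TATA box word TATAAA began at position -30 from the start. The full cyclic AMP response element, TGACGTCA, began upstream of it at position -60 from the start. Searched on both strands, these words stood in 11.5% and 1.85% of all windows. The TUBB1 window held neither of them, nor a GATA word (GATA with A or T before it and A or G after it), which 25% of all windows held. It also lacked the CCAAT box word, in 34.6% of windows, and the AP-1 word TGACTCA, in 4.95%. A match is a run of letters in a window and was not tested for binding.

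TUBB1 had the largest difference from untreated K562 cells of the 10 genes with hemin, with PMA and with DAC. Its log2 values were 6.67 and 6.02 in the untreated arrays, 8.67 with 25 µM hemin, 9.23 with 50 µM hemin, 9.92 with PMA and 8.66 with DAC. All 4 treated K562 arrays lay above both untreated arrays, and the PMA array lay highest. In HEL its values were 9.77 untreated, 9.97 with PMA and 9.76 with DAC, so that every HEL array was above the untreated K562 arrays and they spanned far less than the K562 arrays.

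The second probe set of TUBB1, which is dimmer, showed the same order among the K562 arrays, with DAC further behind: 4.33 and 3.66 untreated, 6.28 and 6.77 with 25 and 50 µM hemin, 7.53 with PMA and 5.74 with DAC. Its HEL values were 7.77 untreated, 7.44 with PMA and 7.83 with DAC. With PMA in K562 the brighter probe set rose 11.9-fold and the dimmer was 11.6-fold higher than the untreated mean.

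TUBB2A, a beta isotype abundant in brain and widely transcribed elsewhere, also had higher values in all 4 treated K562 arrays, with DAC as the highest of them where for TUBB1 it was the lowest. Its log2 values were 10.85 and 10.80 untreated, 11.69 with 25 µM hemin, 12.18 with 50 µM hemin, 12.58 with PMA and 12.69 with DAC. The untreated pair differed by 0.05, the closest agreement of the 10 genes. In HEL the values were 8.12 untreated, 8.14 with PMA and 8.64 with DAC, all of them below every K562 array.

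TUBB2B, a neighbour of TUBB2A on chromosome 6 and a near copy of it in sequence, was dim, and its arrays were ordered differently. Its log2 values in K562 were 5.93 and 6.24 untreated, 5.75 with 25 µM hemin, 4.09 with 50 µM hemin, 7.05 with PMA and 5.00 with DAC, and in HEL 3.90, 3.26 and 3.82 for untreated, PMA and DAC. The PMA array was the highest of the 9 and 50 µM hemin the lowest in K562. A probe set annotated to both genes, which names neither, read 8.58 and 8.06 untreated, 8.59 and 8.86 with hemin, 9.20 with PMA and 9.41 with DAC in K562, with all treated arrays above the untreated pair but the 25 µM hemin array only barely so.

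TUBB6, a broadly transcribed beta isotype, read 11.51 and 11.24 untreated, 11.80 with 25 µM hemin, 12.47 with 50 µM hemin, 12.01 with PMA and 12.42 with DAC in K562. Its HEL values were 10.71 untreated, 10.83 with PMA and 11.14 with DAC. Again all 4 treated K562 arrays were above the untreated ones, and all HEL arrays were below them. Over the 9 arrays TUBB6 and TUBB2A had a Pearson correlation of 0.93, a description over points in which the 3 HEL arrays are below all K562 arrays for both genes.

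TUBB3, best known as the beta isotype of neurons, read 11.96 and 11.19 untreated, 11.58 and 12.01 with 25 and 50 µM hemin, 12.42 with PMA and 12.59 with DAC in K562. The hemin arrays overlapped the untreated pair, whereas the PMA and DAC arrays were above it. Its HEL arrays read 11.09 untreated, 11.56 with PMA and 11.47 with DAC. TUBB4B, a beta isotype found in most tissues, read 12.14 and 11.77 untreated, 11.81 and 12.07 with hemin, 11.80 with PMA and 12.76 with DAC in K562, so that only the DAC array stood outside the untreated pair. Its HEL arrays read 11.29 untreated, 12.01 with PMA and 11.85 with DAC.

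Among the alpha-tubulin genes, TUBA1A, an isotype abundant in the developing brain, had the widest untreated spread of the 10 genes, with log2 values of 10.52 and 11.99. Its hemin arrays read 11.61 at 25 µM and 10.36 at 50 µM, the DAC array 10.87 and the PMA array 13.02, and its HEL arrays 10.00 untreated, 11.09 with PMA and 10.83 with DAC. The PMA array was the only K562 array above both untreated arrays. TUBA1C, a widely transcribed isotype, had the narrowest range, 0.40 over the 9 arrays, from 13.82 with PMA to 14.23 with DAC, both in K562.

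TUBA4A, an alpha isotype that is also abundant in platelets, was ordered otherwise than TUBB1. Its log2 values were 10.03 and 9.85 untreated, 9.70 with 25 µM hemin, 10.41 with 50 µM hemin, 8.83 with PMA and 10.36 with DAC. PMA gave the lowest of the 9 values, and 25 µM hemin was also below the untreated pair. In HEL it read 12.41 untreated, 13.19 with PMA and 12.49 with DAC, so PMA gave the highest value of that line, and all HEL arrays were above all K562 arrays.

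TUBG1, which encodes the gamma-tubulin of the nucleating ring, read 11.21 and 10.76 untreated, 10.83 and 11.14 with 25 and 50 µM hemin, 10.44 with PMA and 11.81 with DAC in K562. PMA lay below and DAC above the untreated pair. The HEL arrays lay within 11.37 to 11.50.

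**Figure D1:**
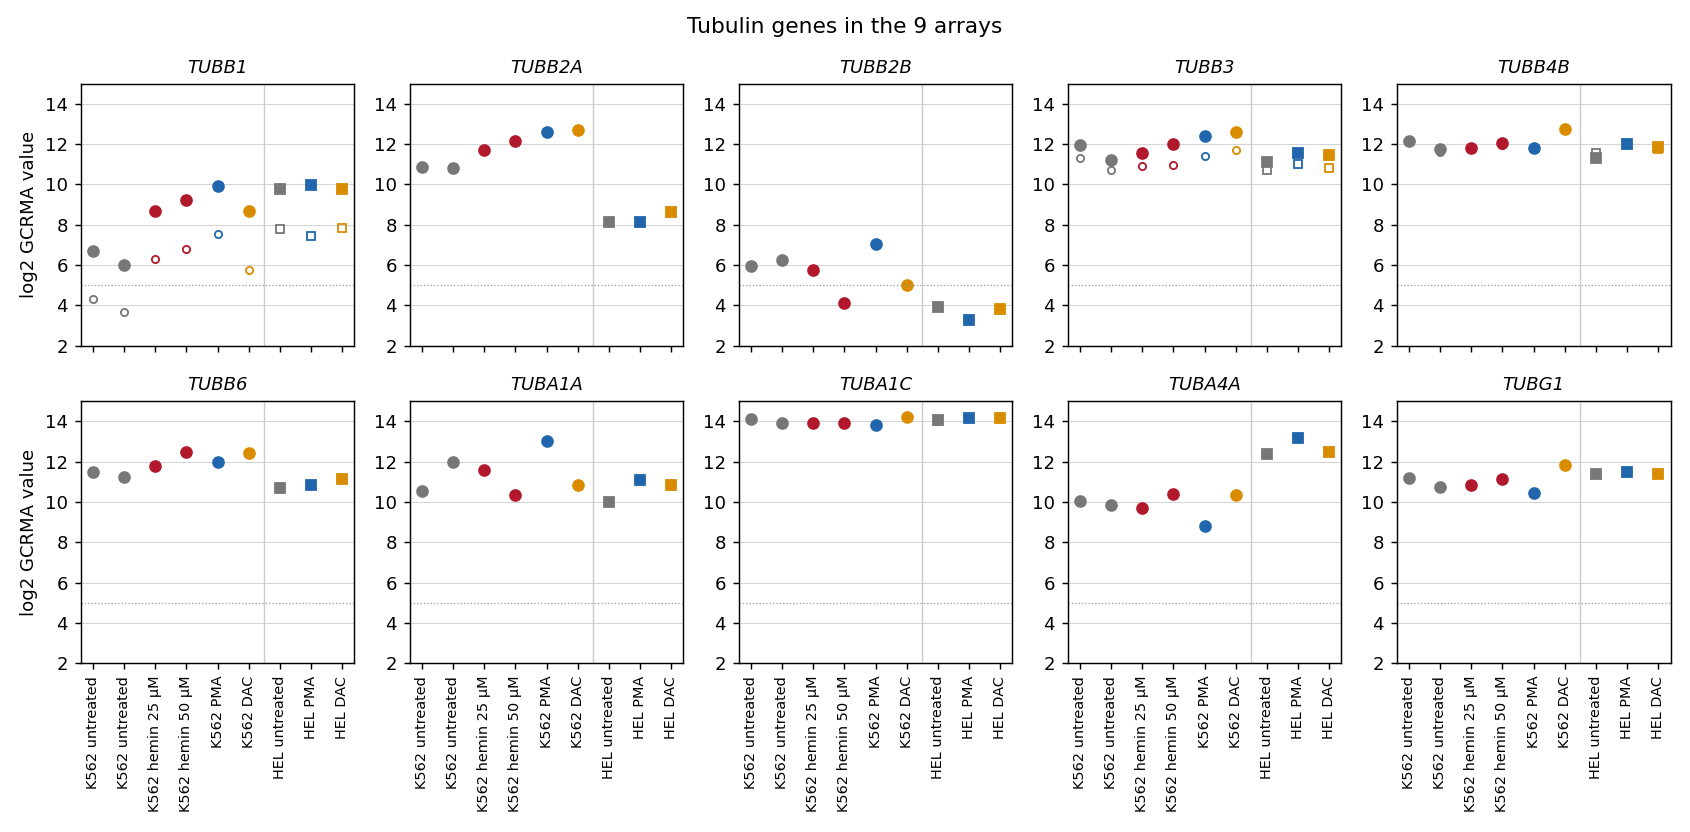
Log2 GCRMA values (vertical axis, 2 to 15 in every panel) of the 10 tubulin genes in each of the 9 arrays, circles for K562 and squares for HEL, grey for untreated, red for hemin, blue for PMA and orange for DAC. Filled symbols are the brightest probe set over the 9 arrays, open symbols the other probe set of a gene, and the dotted line marks the log2 value of 5. TUBB1 climbs from about 6.02 to 9.92 in K562 while its HEL arrays stay near 9.77, and TUBA4A lies higher in HEL than in K562 throughout.

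In the comparison of hemin with untreated K562, which asks how the inducer of erythroid features bears on the family, 0 of the 10 genes passed the threshold in limma's moderated test (Benjamini-Hochberg adjusted p under 0.05), as did 0% of all 9890 genes. At an unadjusted p under 0.05 there were 2 of the 10 and 1012 of all genes. These 2 were TUBB1 and TUBB2A. TUBB1 had a log2 change of 2.60 (SE 0.35, 2 arrays against 2, 95% interval 1.63 to 3.58), which is 6.08-fold, with an adjusted p of 0.462 in limma. TUBB2A had 1.11 (SE 0.24, 0.42 to 1.79), 2.15-fold, with an adjusted p of 0.468 in limma. The methods' t-test also put 2 of the 10 genes below 0.05 before adjustment and 0 after it.

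By size, 3 of the 10 genes were over 1.5-fold higher with hemin (TUBB1, TUBB2A and TUBB6) and 1 was over 1.5-fold lower (TUBB2B), beside 9.41% and 14.2% of all genes. TUBB6 had a log2 difference of 0.76 (SE 0.31) and TUBB2B one of -1.16 (SE 0.62). The median over the 10 genes was 0.06 against -0.004 over all genes. For those 3 genes each hemin array exceeded each untreated array, and for TUBB2B each was below, and 22.9% and 22.6% of all genes did the same in each direction.

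The 2 hemin arrays differ in dose, so each was also set against the untreated mean, here by size alone. At 25 µM the fold was 5.00 for TUBB1, 1.82 for TUBB2A and 1.34 for TUBB6, and at 50 µM it was 7.39, 2.55 and 2.14. TUBB2B was at 0.79 of the untreated mean at 25 µM and at 0.25 at 50 µM, where its log2 value of 4.09 was below 5. The probe set annotated to both TUBB2A and TUBB2B was at 1.21-fold at 25 µM and at 1.45-fold at 50 µM. Over 1.5-fold lay 2 genes higher and 0 lower at 25 µM (7.91% and 9.68% of all genes), and 3 higher and 2 lower at 50 µM (15.4% and 20.8%), the additional lower gene being TUBA1A at 0.54 of the untreated mean, a log2 difference of -0.90 where its untreated arrays differ by 1.47. Of 5 megakaryocyte and platelet markers measured in the fit, 0 were over 1.5-fold higher with hemin and 3 were over 1.5-fold lower, among them GP6, the collagen receptor of platelets, with a log2 difference of -1.83, although none passed the adjusted test. Of these 5 markers, 3 reached a log2 value of 5 in the PMA array alone of the K562 arrays. Their differences with hemin are therefore between values below that level.

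PMA, an inducer of megakaryocytic features, was the treatment with calls among the 10 genes. TUBB1 rose by a log2 value of 3.57 (SE 0.43, 1 array against 2, 95% interval 2.38 to 4.77), 11.9-fold, with an adjusted p of 0.0182 in limma. TUBB2A rose by 1.75 (SE 0.30, 0.92 to 2.59), 3.37-fold, with an adjusted p of 0.0352 in limma. They were 2 of 10 genes past the test, 2 higher and 0 lower, where 16.8% of all genes passed, 7.74% higher and 9.09% lower. Of the 765 genes that passed as higher, 217 were in the test only through the PMA array, and 0 of the 10 members were. The other 8 did not pass. TUBA1A had a difference of 1.77 with an interval from -0.65 to 4.18, TUBB2B 0.97 (-1.16 to 3.11), TUBB3 0.84 (-0.38 to 2.07) and TUBB6 0.63 (-0.42 to 1.69). TUBA4A had -1.11 (-2.17 to -0.05) with an adjusted p of 0.127 in limma, and TUBG1 had -0.55 (-1.43 to 0.33).

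By size alone, 6 of the 10 genes were over 1.5-fold higher with PMA and 1 was lower, beside 25.8% and 30.1% of all genes, and the median of the 10 was 0.74 against -0.10 over all genes. TUBB3, 1 of the 6, was at 1.79-fold on its brighter probe set and at 1.32-fold on the other. PMA has 1 array in K562, so the fit assumes that this array varies like the untreated and hemin arrays. These leave 2 residual degrees of freedom, and the hemin pair also differs in dose. Without either untreated array, or without either hemin array, 0 of the 10 and 0 of all 9890 genes passed. The adjusted p of TUBB1 then lay between 0.0886 and 0.124 and that of TUBB2A between 0.0838 and 0.170 in limma, while their log2 changes stayed within 3.25 to 3.90 and 1.73 to 1.78.

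With PMA the proliferation genes and the megakaryocyte and platelet markers moved in the same K562 array. The mean log2 value of 20 proliferation genes was 8.05 in the PMA array and between 11.12 and 11.49 in the other 5 K562 arrays, and 18 of the 20 fell in the test. The mean of 8 megakaryocyte and platelet markers was 7.36 with PMA and between 2.93 and 4.07 in the other K562 arrays. PF4, GP9 and SELP lay near the lowest value of the table in every K562 array. Of the 5 such markers measured in the K562 fit, 3 reached a log2 value of 5 in the PMA array alone. They were kept through that array, so the filter itself favours a higher mean with PMA. In the test 3 of the 5 rose: ITGB3, the platelet integrin beta subunit, GP6, and PPBP, a platelet granule chemokine. ITGB3 and PPBP reached a log2 value of 5 in the PMA array alone of the K562 arrays, so they were in the test only through it. The 2 measured monocyte and granulocyte markers had a mean of 6.92 with PMA and of 5.27 and 7.96 in the untreated arrays. The only measured lymphocyte marker, CD3D, read 10.42 and 11.01 untreated and 12.51 with PMA in K562, and 3.45 in untreated HEL. The mean of 8 erythroid markers was 9.98 and 8.88 untreated, 8.69 with PMA, 9.72 and 10.43 with 25 and 50 µM hemin, and 11.82 with DAC. The 25 µM hemin array thus lay within the untreated pair. Of these markers 0 passed with hemin or PMA (smallest adjusted p of 0.486 and 0.0571 in limma). The share of these shifts in the TUBB1 and TUBB2A values was not tested. In bulk samples, more cells that use a gene and more RNA per cell cannot be told apart.

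DAC in K562 gave the same direction as PMA for TUBB1 and TUBB2A, with 0 of the 10 genes past the test in limma, where 0.0607% of all genes passed. At an unadjusted p under 0.05 there were 3 of the 10 and 1072 of all genes. TUBB2A had a log2 change of 1.87 (SE 0.30, 1 array against 2, 95% interval 1.03 to 2.71) with an adjusted p of 0.276 in limma, and TUBB1 had 2.31 (SE 0.43, 1.11 to 3.51) with 0.325. TUBB4B, the third of these, had 0.81 (SE 0.29, 0.003 to 1.61) with 0.459.

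By size, 6 of the 10 genes were over 1.5-fold higher with DAC and 1 lower, beside 14.8% and 17.7% of all genes. The higher ones were TUBB1 at 4.96-fold, TUBB2A at 3.65-fold, TUBB6 at 2.06-fold, TUBB3 at 2.02-fold, TUBG1 at 1.77-fold and TUBB4B at 1.75-fold, and the lower one was TUBB2B at 0.47 of the untreated mean. The median of the 10 was 0.82 against -0.02 over all genes. Erythroid markers were high in the same array: 6 of 8 were over 1.5-fold higher with DAC, with a median log2 difference of 1.64, and 1 passed the test. It was AHSP, the chaperone of free alpha-globin, which was in the test only through its DAC array. The share of this shift in the tubulin values was not tested. The hemin, PMA and DAC comparisons share the 2 untreated K562 arrays, so a low reading in that pair would raise all 3 of them together. The 2 untreated arrays differed by 0.65 for TUBB1, by 0.05 for TUBB2A and by 1.47 for TUBA1A.

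**Figure D2:**
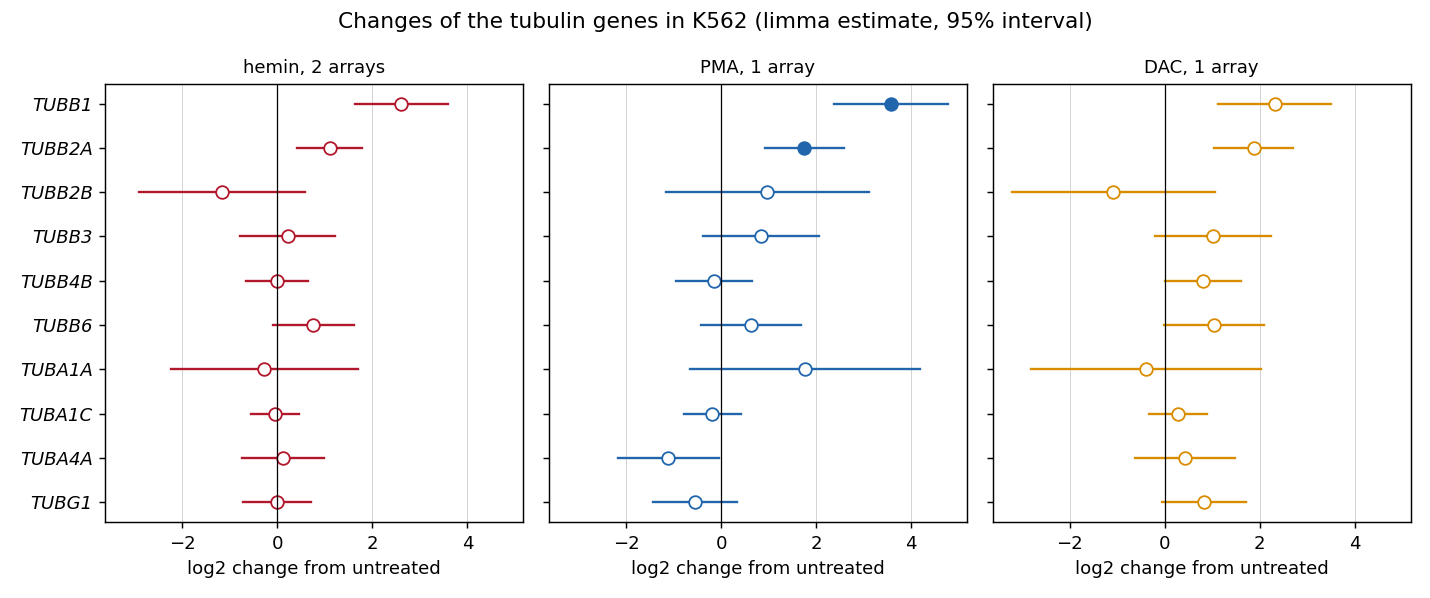
Log2 change from untreated K562 cells (horizontal axis) of each of the 10 tubulin genes with hemin, PMA and DAC, as limma estimates with 95% intervals. Filled circles passed the adjusted test, which only TUBB1 and TUBB2A with PMA did, and open circles did not.

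Untreated K562 differed from untreated HEL for 3 of the 10 genes in limma over all 9 arrays, 1 higher and 2 lower in K562, where 20.2% of 10560 genes passed, 9.57% higher and 10.7% lower. TUBB1 was lower in K562 by a log2 difference of -3.43 (SE 0.44, 2 arrays against 1, adjusted p of 0.0317 in limma), and TUBA4A by -2.47 (SE 0.38, adjusted p of 0.0422 in limma). TUBB2A was higher in K562 by 2.70 (SE 0.27, adjusted p of 0.0199 in limma). The mean of 8 megakaryocyte and platelet markers was 7.97 in untreated HEL against 4.07 and 3.96 in untreated K562. Only 5 of these 8 reached a log2 value of 5 in a K562 array. The rest were kept through HEL arrays alone, so the filter itself favours a higher mean in HEL. Without an untreated K562 array 0 of the 10 genes passed, and without a hemin array 1 did. With no filter on dim probe sets TUBA4A did not pass (adjusted p of 0.0504 in limma). Of the genes that did not pass, TUBB2B had a difference of 2.18 (95% interval -0.55 to 4.91) and TUBG1 one of -0.38 (-1.31 to 0.55).

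HEL has a lone array for each condition, and no test was made within that line. With PMA, 2 of 9 measured genes were over 1.5-fold higher and 0 were lower, beside 14.9% and 16.8% of 9641 genes. They were TUBA1A at 2.12-fold and TUBA4A at 1.73-fold. TUBB1 was at 1.14-fold on its brighter probe set and at 0.79-fold on the dimmer, and TUBB2A was at 1.01-fold. TUBB4B was at 1.37-fold on the probe set that is brighter in HEL and at 1.65-fold on the other. With PMA in HEL, 7 of 8 megakaryocyte and platelet markers were over 1.5-fold higher. TUBB1, at 9.77 in the untreated cells, was not among the genes past that size, and the reason was not tested. With DAC, 1 of the 9 genes was over 1.5-fold higher, TUBA1A at 1.78-fold, and 0 were lower, beside 4.23% and 6.05% of all genes.

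The difference between the cell lines in their response was tested as an interaction over the 9 arrays, with 0 of the 10 genes past the threshold in limma for PMA (2.66% of all genes) and 0 for DAC (0% of all genes). At an unadjusted p under 0.05 there were 3 of the 10 and 2226 of 10560 genes for PMA, and 2 of the 10 and 738 of all for DAC. For PMA, the response of TUBB1 was larger in K562 than in HEL by a log2 value of 3.38 (SE 0.68, 95% interval 1.22 to 5.55) with an adjusted p of 0.135 in limma, that of TUBB2A by 1.74 (SE 0.41, 0.43 to 3.04) with 0.165, and that of TUBA4A differed by -1.90 (SE 0.58, -3.74 to -0.05) with 0.230. For DAC, TUBB1 differed by 2.32 (0.16 to 4.49) with an adjusted p of 0.684 in limma and TUBB2A by 1.35 (0.04 to 2.65) with 0.702. The DAC doses of the lines were 100 and 20 nM, so line and dose cannot be told apart in that comparison.

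**Figure D3:**
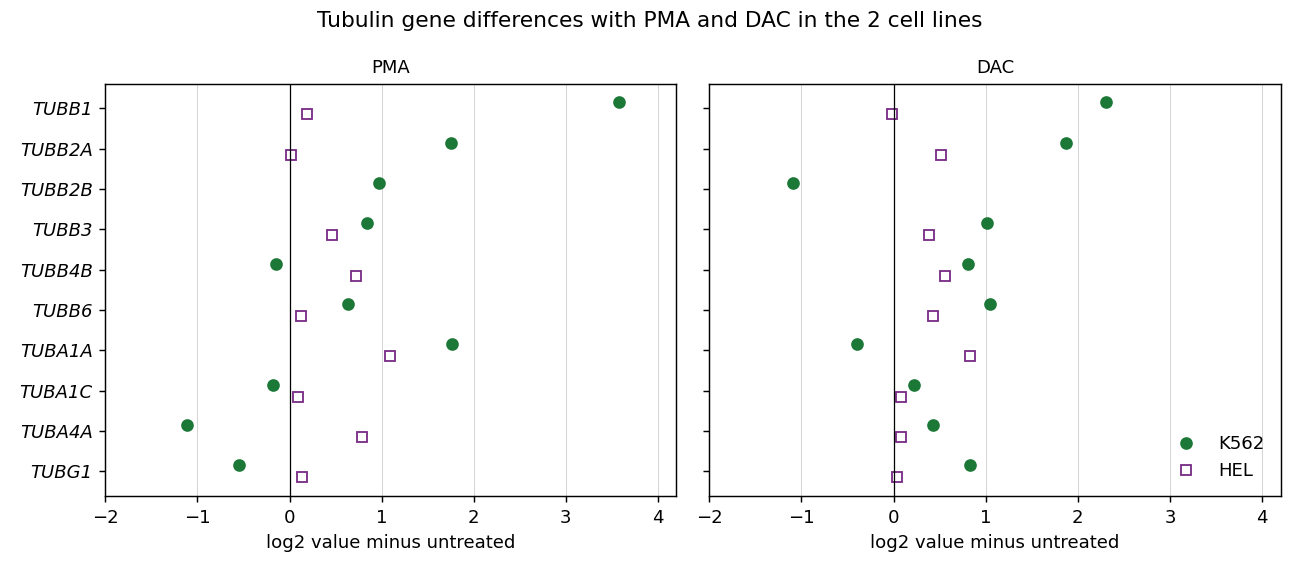
Log2 value minus the untreated value (horizontal axis) of the 10 tubulin genes with PMA and with DAC, filled circles for K562 (1 array minus the mean of 2) and open squares for HEL (1 array minus 1), each on the brightest probe set over the 9 arrays. TUBB2B is not drawn for HEL. TUBA4A lies at -1.11 in K562 and 0.79 in HEL with PMA, and TUBB1 lies at 3.57 and 0.19.

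Other genes of the tubulin system were counted by lists, to be read against the 7.74% of all genes that rose with PMA and the 9.09% that fell. The share that rose includes 217 of 765 genes that were in the test only through the PMA array. Of 6 further tubulin genes measured in K562, 1 rose and 1 fell with PMA. TUBAL3, an alpha-tubulin-like gene, rose by 2.17 (adjusted p of 0.0484 in limma) and TUBE1, which encodes the epsilon-tubulin of centrioles, had log2 values of 10.10 and 10.36 untreated and 6.60 with PMA, a fall of 3.63 (adjusted p of 0.0493 in limma). TUBB, a major beta isotype of dividing cells, had a difference of -0.74, and TUBD1, the delta-tubulin of centrioles, one of -0.54, and neither passed. The median of the 6 was -0.41. The 6 include TUBB4A, a beta isotype near the lowest value of the table in the untreated and PMA arrays of K562.

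In the gamma-tubulin ring complex, the nucleator in which TUBG1 sits, 4 of 7 measured genes fell with PMA and 1 rose. Over all genes 9.09% fell and 7.74% rose. The median of the 7 was -1.86. TUBGCP5, a grip protein of the ring, read 7.26 and 7.38 untreated and 4.75 with PMA. TUBGCP4, another grip protein, and MZT1, a small subunit that binds the grip proteins, fell by 1.86 and 2.10, and TUBGCP3 was the fourth to fall. TUBGCP2 went the other way, from 8.44 and 8.18 untreated to 10.60, a rise of 2.29 (adjusted p of 0.0172 in limma). With hemin 0 of the 7 passed, and MZT1 and TUBGCP4 had differences of -0.61 and 0.69.

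Of 19 tubulin folding genes, which encode the chaperonin, prefoldin and the cofactors that assemble the heterodimer, 0 rose and 2 fell with PMA, the latter close to the share of all genes that fell, with a median of -0.57 against -0.10 over all genes. These were CCT5, a chaperonin subunit, at -1.29, and ARL2, a small GTPase that acts with the cofactors, at -1.51. Of 17 genes for tubulin modification and severing, 1 rose and 1 fell, no more than the share of all genes, with a median of -0.42. KATNA1, the catalytic subunit of the severing enzyme katanin, fell by 1.47. The gene counted as higher was VASH1, a carboxypeptidase that removes the terminal tyrosine of alpha-tubulin. It read 2.92 and 2.46 untreated, near the lowest values of the table, and 5.55 with PMA, the one K562 array that brought it into the test, so no size is given.

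Of 18 genes for microtubule binding and dynamics, 3 rose and 5 fell with PMA, beside 7.74% and 9.09% of all genes. The median of the 18 was -0.09. STMN1, which binds free tubulin dimers and is high in dividing cells, read 10.53 and 10.59 untreated, 7.59 with PMA and 10.47 to 10.69 with hemin. KIF2C, a kinesin that depolymerizes microtubule ends at centromeres, fell by 4.14. MAPRE2, an end-binding protein, rose by 1.82. CLIP2, a plus-end binding protein and 1 of the 3 counted as higher, read 2.67 and 3.23 untreated and 7.55 with PMA, and it too was in the test only through the PMA array. With hemin 0 of the 18 passed in limma and 2 had an unadjusted p under 0.05. As in the comparison of the 10 members, 0 of the genes on these lists passed with PMA when an untreated or a hemin array was left out.

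**Figure D4:**
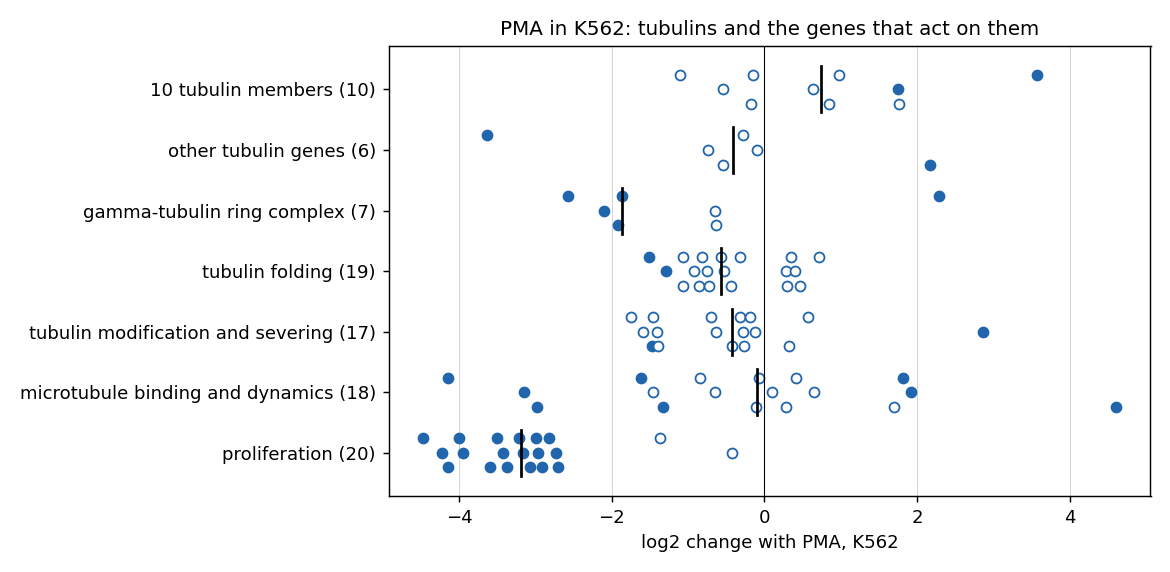
Log2 change with PMA against untreated K562 cells (horizontal axis) of every measured gene of 7 groups, with the number measured in brackets. Filled circles passed the adjusted test in limma, open circles did not, and the black bar is the median of the group. The median of the 10 tubulin genes lies at 0.74 and that of the 20 proliferation genes at -3.19.

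Genes whose values ran most like those of 2 members over the 9 arrays were looked up among the genes with a range of at least 2 on the log2 scale, as a description with no test. For TUBB1 they were C3orf52, GLRX, SAMD9L, TCEAL9 and FOS, with Pearson correlations of 0.86 to 0.92. FOS, an immediate early gene, read 5.05 and 3.78 in untreated K562, 4.99 and 5.72 with hemin, 8.61 with PMA and 7.51 in untreated HEL. GLRX, the cytosolic glutaredoxin, read 6.68 and 6.72 untreated, 8.33 and 8.27 with hemin, 8.19 with PMA and 7.56 with DAC. For TUBB6 they were RFESD, CLN8, ZNF165, TMEM138 and GTF3C4, with correlations of 0.94 to 0.98. RFESD read 9.18 and 8.89 in untreated K562, 9.79 and 10.70 with hemin and 7.83 in untreated HEL. The 9 points share 2 cell lines and the same controls, so a gap between the lines alone can give a high correlation.

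Among the 10 members themselves, the pairs with the highest correlation over the 9 arrays were TUBA1C with TUBG1 and TUBB2A with TUBB6, both at 0.93, and the pairs with the lowest were TUBB2B with TUBA4A at -0.91 and TUBB2A with TUBA4A at -0.90. TUBA1C ranges over only 0.40, so its shared pattern with TUBG1 rests on small differences. TUBB1 and TUBB2A, whose treated K562 arrays were all above the untreated ones, had a correlation of -0.27, with TUBB1 higher and TUBB2A lower in untreated HEL than in untreated K562.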

How the data were processed

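Total RNA of 6 K562 and 3 HEL samples was hybridized to 9 Affymetrix arrays. Per the labels, the deposited log2 values were made by the authors with GCRMA, with no version named. GCRMA corrects background from probe sequence, sets the arrays to a common scale and summarizes probes, so a shift shared by most genes is removed and values near the lowest level carry no order. No source used here says how the 27306 probe sets were chosen, and the number of arrays limits the precision. The table holds no columns of the authors' own comparisons.

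The platform annotation, which is old, was updated through RefSeq gene identifiers. It gave 22858 probe sets with 1 gene, 1164 with several (which name none here) and 3284 not listed. One-gene probe sets that reached 5 on the log2 scale in any array of the fit were kept, and the brightest by mean represented its gene (9890 genes in K562, 10560 over 9 arrays, 9641 in HEL). R 4.3.3 and limma 3.58.1 (lmFit, eBayes) were run on the 6 K562 arrays (4 groups, the hemin doses pooled) and on the 9 arrays in 7 groups for the differences between the lines. P-values were adjusted by Benjamini-Hochberg over all genes at 0.05, and sizes were counted at 1.5-fold. The paper names no test for these arrays, and Student's t-test from its methods was an alternative. The fit was also run on simulated data. They had equal, independent noise in every array and no difference between the hemin doses, so those assumptions were not tested.

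The 10 members and the lists (other tubulins, ring complex, folding, modification and severing, binding and dynamics, proliferation, and erythroid, megakaryocyte and platelet, monocyte and granulocyte, and lymphocyte markers) were chosen with earlier results of these data known. The text names all 10 members, up to 4 genes of each list with the smallest p with hemin or PMA, and the 5 genes most like TUBB1 and TUBB6. TUBGCP3, PF4, GP9, SELP, TUBB4A, MAP1A and AHSP were named after their values were seen. Alternatives were 2 other scalings, 2 other filters, the mean of all kept probe sets, an intensity trend, leaving out each array, each hemin dose as its own group, and the untreated and hemin arrays alone. The other probe set of genes with 2 was added after seeing the data. Promoter windows are from RefSeq (GRCh38.p14), and no protein sequences were used here.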

Additional observations from a re-analysis of the deposited data

How the results depend on the processing

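With 2 untreated and 2 hemin arrays as the only source of spread, the calls among the 10 genes are fragile, and the depth limit of these arrays is their number. No paired analysis was possible because the labels give the arrays no shared replicate numbers. Counts in limma moved as follows. With hemin, 0 genes passed under every alternative in limma and 2 in the methods' t-test before adjustment. The count over 1.5-fold with hemin, 4, was 2 at 25 µM as its own group and ranged from 2 to 6 when an array was left out. With PMA, 2 genes passed, but 1 with no filter on dim probe sets (TUBB1; adjusted p of TUBB2A 0.0610), 0 with each hemin dose as its own group, and 0 to 2 when an array was left out. Between the untreated lines 3 passed, but 2 with no filter on dim probe sets (adjusted p of TUBA4A 0.0504), and 0 to 3 when an array was left out. Over all 9890 genes the count with PMA was 1664, and 0 without any 1 of those 4 arrays or with each dose as its own group, that with DAC was 6 and reached 38 after centring on the median, and that with hemin was 0 in limma, 1 after that centring and 7 in the methods' t-test after adjustment. TUBB1 kept its direction in every alternative of the tested comparisons, with adjusted p between 0.227 and 0.928 for hemin over 17 alternatives and between 0.00767 and 0.124 for PMA over 13, and TUBB2A between 0.0224 and 0.170 for PMA over 12. Between the lines the adjusted p of TUBB1 lay between 0.00837 and 0.123, that of TUBB2A between 0.00807 and 0.123 and that of TUBA4A between 0.0167 and 0.176.

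Only differences near 0 or of genes with a wide untreated pair changed sign, and no called change did. With hemin, TUBA1C was at 0.020 under quantile normalization, and TUBB4B and TUBG1 at 0.028 and 0.039 after centring on the median. With each dose as its own group, TUBA1A was at 0.35 and TUBA4A at -0.23 at 25 µM, and TUBB4B at 0.12 and TUBG1 at 0.15 at 50 µM. The other probe set of TUBB3 was at -0.064. When an array was left out, the hemin differences ranged from -0.17 to 0.61 for TUBB3, -0.20 to 0.17 for TUBB4B, -1.01 to 0.46 for TUBA1A, -0.12 to 0.019 for TUBA1C, -0.23 to 0.47 for TUBA4A and -0.22 to 0.22 for TUBG1. They ranged from -0.33 to 0.036 for TUBB4B with PMA, from -1.13 to 0.34 for TUBA1A with DAC, and from -0.17 to 0.020 for TUBA1C between the untreated lines. For the difference of the PMA response between the lines they ranged from -0.010 to 0.76 for TUBB3 and from -0.053 to 1.41 for TUBA1A. The cause was not tested.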

Other observations

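TUBB4A, a beta isotype of neurons and oligodendrocytes that is not among the 10 members, was near the lowest value of the table in K562 except with DAC. Its log2 values were 2.62 and 2.29 untreated, 2.26 with either dose of hemin, 2.36 with PMA and 6.58 with DAC. It was in the K562 fit only through the DAC array, so no size or test is given. In HEL it read 6.19 untreated, 7.35 with DAC and 4.64 with PMA. RefSeq places 2 transcription starts for it, and the windows around them hold 27 and 5 CpG pairs. It was named after its values were seen.

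MAP1A, a microtubule-associated protein best known from neurons, was the gene of the binding list with the smallest p with hemin. Its log2 values were 7.04 and 6.26 untreated, 8.90 with 25 µM hemin, 9.70 with 50 µM hemin, 6.94 with PMA and 6.89 with DAC, so only the hemin arrays stood apart. The difference with hemin was 2.65, with an unadjusted p of 0.00376 in limma, and it did not pass after adjustment (adjusted p of 0.467 in limma). It too was named after its values were seen.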
